A study of Mus musculus with 16 samples.

Results

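The aminoacyl-tRNA synthetase genes were picked out of the array annotation by their symbols, an amino acid letter followed by "ars" with or without a 2, together with Eprs, Farsa and Farsb, and by a gene description naming a tRNA synthetase. There were 34 of them among 18138 genes on the arrays. By the symbol, 20 encode enzymes of the cytosol (no suffix) and 14 encode enzymes of mitochondria (suffix 2). The description of Vars names a mitochondrial protein, but by its symbol Vars was counted with the cytosolic genes. The symbols are those of the array, and Mars is Mars1 in the RefSeq annotation used here.

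mRNA levels were measured on 16 Illumina MouseRef-8 arrays of D10 cells, that is, of one T cell line. D10 is a mouse T helper 2 (Th2) line of clonal origin that grows quickly. Cells received no inhibitor (control) or Akti1/2 at 10 µM, starting 1 h before stimulation, and were left unstimulated (0 h) or stimulated through CD3 and CD28 with biotinylated antibodies and streptavidin for 2, 6 or 12 h. This gives 8 groups of 2 arrays: control cells at 0, 2, 6 and 12 h, and Akti1/2-treated cells at the same times. Akti1/2 is an allosteric inhibitor of the kinases Akt1 and Akt2, and the comparison asks which transcripts of activated helper T cells depend on Akt. Control cells are described as untreated in the methods and as given solvent in the results, so which of these applies is not settled. The sources used here do not say whether the 2 arrays of a group came from separate cultures, so the p-values measure the spread between these arrays only, which may be technical. The arrays lay on 2 chips of 8, each holding 1 array of every group.

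A synthetase joins one amino acid to the tRNAs that read its codons, and ribosomes use the charged tRNAs. Most animal cells have separate nuclear genes for the cytosolic and the mitochondrial enzyme of an amino acid, with exceptions such as Gars and Kars, whose single genes supply both compartments. Several cytosolic enzymes sit in a multi-synthetase complex held together by scaffold proteins without enzyme activity. Many cytosolic synthetase genes are known targets of ATF4, a transcription factor made when amino acids run short or the endoplasmic reticulum is stressed, which binds elements of the form TTGCATCA.

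The stretches around TTGCATCA in Iars, Tars and Yars are shown because these cytosolic synthetase genes carry the letters near their start sites. They are 3 of the 4 that do. RefSeq promoter windows (GRCm38.p6, 250 bases before to 50 after the start, in the direction of the gene) were matched for 25 of the 34 genes, in 26 windows. Cars, Hars, Hars2, Lars, Nars, Pars2, Rars, Vars and Wars were not matched. Capitals mark TTGCATCA or, in Yars, its reverse complement, each with 10 bases on either side.
Iars: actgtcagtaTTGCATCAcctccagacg
Tars: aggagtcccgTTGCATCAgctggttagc
Yars: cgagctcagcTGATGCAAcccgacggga
These lie at chr13:49682127-49682154 on the plus strand (Iars), chr15:11399656-11399683 on the minus strand (Tars) and chr4:129189896-129189923 on the plus strand (Yars). With the start base counted as 0, the first capital is at 7 in Iars, -15 in Tars and 3 in Yars.

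TTGCATCA, searched on both strands, was in 4 of 13 cytosolic windows (30.8%), in 0 of 13 mitochondrial windows and in 0.895% of all 32851 windows of the same length. The looser TGATGNAA, which includes the reverse complement of TTGCATCA, was in 5 of 13 cytosolic windows (38.5%), in 0 of 13 mitochondrial ones and in 3.97% of all windows. It added Gars, at -30. The E-box CACGTG was in 4 cytosolic windows (Aars, Farsb, Iars and Tars), in 1 mitochondrial window (Ears2) and in 7.15% of all. The canonical 10-letter palindrome bound by NRF1, an activator of mitochondrial genes, was in none of the 26 and in 0.971% of all windows. The windows of Eprs, Sars, Mars and Qars hold no TTGCATCA. For Aars, Yars and Eprs the start used for the window lies inside the annotated extent of the gene, which reaches further upstream.

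Before the synthetases, the arrays were checked for the labelled cell type. Of 9 T cell markers, 7 were above background on every array, among them Cd3g, the most abundant, while Thy1 was at background on all. Of 7 Th2 markers, Gata3, Il4, Il5, Il13 and Il1rl1 were above background on every array, and Ccr4 and Maf were on none. The markers of CD8 T cells (Cd8a, Cd8b1), Th1 cells (Tbx21, Ifng, Cxcr3) and natural killer cells (Klrb1c, Ncr1, Klrd1) were at background on every array. So were 3 of 4 B cell markers (all but Ms4a1) and 6 of 7 myeloid markers (all but Cd68). The erythroid gene Hba-a1 was above background on every array, with a mean intensity of 1105, whereas Hbb-b1 was on none. The intensity of Hba-a1 moved with time and treatment. It was 1945 and 1577 in control cells at 0 h and 1851 and 1490 with Akti1/2, 1926 and 1565 against 919.8 and 839.7 at 2 h, 1337 and 1188 against 492.5 and 580.0 at 6 h, and 663.6 and 791.7 against 251.7 and 263.7 at 12 h. Summed Th2 markers were also lower with Akti1/2, at 10640 and 13820 against 21640 and 22540 at 6 h and 14270 and 10710 against 21240 and 22510 at 12 h. Summed T cell markers were 22260 and 17530 against 31030 and 24920 at 2 h, 19230 and 26730 against 27160 and 23450 at 6 h, and 23370 and 18090 against 23420 and 26750 at 12 h. All of these are deposited intensities without normalization. The mean intensity of the arrays at 2 h was 414.2 and 393.8 in treated and 528.8 and 467.1 in control cells. The Th2 sum includes Il4, Il5 and Il13, whose mRNAs the study reports as decreased by Akt inhibition. The part of these markers in the results below was not tested.

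The synthetases spanned a wide range of brightness. Intensity is the deposited probe brightness of a gene, and a gene was above background on an array when fewer than 1% of the 798 negative controls were as bright. Of the 20 cytosolic genes, 17 were above background on all 16 arrays, and of the 14 mitochondrial genes, 7 were. Gars had the highest mean intensity, 10630, followed by Aars with 3187, Qars with 2328 and Rars with 2062; these values belong to different probes and are not ranked as transcript levels. Among the mitochondrial genes the mean intensity of those tested ran from 181.2 (Sars2) to 553.5 (Fars2). Cars and Hars, Aars2, Hars2, Wars2 and Yars2 were at background on every array, and Nars2 was above it on 1. These 7 genes were not tested, which leaves 18 cytosolic and 9 mitochondrial genes. Yars was above background on only 2 arrays (1 of Akti1/2 at 2 h and 1 at 6 h), Pars2 on 15, and Sars2 on 14, with neither control array at 12 h.

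Without stimulation, Akti1/2 alone for 1 h moved no synthetase past the threshold of an adjusted p of 0.05 (limma, Benjamini-Hochberg over all 7395 tested genes). The comparison called 4 of the 7395 genes, 0.0541%, namely Rgs1, Ddit3, Dusp2 and Chac1. No synthetase was called at 0 h in any fit that left out 1 array either. At an unadjusted p below 0.05, 2 of 27 synthetases differed, Iars2 (-0.57 on the log2 scale) and Sars2 (0.46), which is 7.41% where 5.18% of all tested genes did. Median differences were -0.06 over the 18 cytosolic genes and 0.02 over the 9 mitochondrial ones. Because these are bulk samples, fewer cells of a type and less RNA per cell cannot be told apart in any of the differences given here.

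In control cells, synthetases were called after stimulation about as often as other genes at 12 h. At 2 h only Vars, the valine enzyme, was called, lower by 0.42 on the log2 scale (SE 0.121, limma adjusted p = 0.0483), where 4.42% of all tested genes were called higher and 5.86% lower. At 6 h, 2 cytosolic genes rose, Tars (threonine) by 0.72 and Iars (isoleucine) by 0.38, and the mitochondrial genes Lars2, Fars2 and Vars2 fell, where 12.1% of tested genes were called higher and 15.4% lower. At 12 h, 4 of 27 were higher and 3 lower, where 12.7% and 15.1% of tested genes were. Farsb, one subunit of the phenylalanine enzyme, rose by 0.57 (limma adjusted p = 0.00255), while Farsa, the other subunit, was lower by 0.78 (limma adjusted p = 0.00615). Tars, Iars and the mitochondrial arginine gene Rars2 were higher at 12 h, and Iars2 and Lars2 lower. The 6 h count went from 5 to 0 without replicate 1 of control cells at 0 h, to 3 without replicate 2 of those, and to 1 and 2 without replicate 1 and replicate 2 of control cells at 6 h. The 12 h count went from 7 to 2 without replicate 1 of control cells at 12 h, to 4 without replicate 2 of those and to 3 without either array of control cells at 0 h. Only the 12 h rise of Farsb held in every fit that left out 1 array and under each other alternative.

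In Akti1/2-treated cells, the same stimulation was followed by a rise of most cytosolic synthetases. Time in the inhibitor grew along with time of stimulation, and no unstimulated cells were kept in it beyond 1 h. Effects of stimulation and of longer inhibitor exposure therefore cannot be told apart in treated cells. Against treated cells at 0 h, 6 of 18 cytosolic genes were higher at 2 h, 10 at 6 h and 13 at 12 h, and 0, 0 and 2 were lower. The 2 h count of called synthetases, 11 with the mitochondrial genes, went to 6 without either array of treated cells at 0 h or without replicate 1 of treated cells at 2 h. Over all tested genes, 17.8%, 15.4% and 21.1% were called higher and 20.9%, 17.9% and 23.4% lower at these times. The median change of the 18 genes was 0.25, 0.65 and 0.74 on the log2 scale, beside -0.03, -0.02 and -0.03 over all tested genes. The 9 mitochondrial genes had medians of -0.11, 0.01 and -0.23, with 3 higher and 2 lower at 2 h, 2 lower at 6 h and 1 higher and 2 lower at 12 h.

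**Figure D1:**
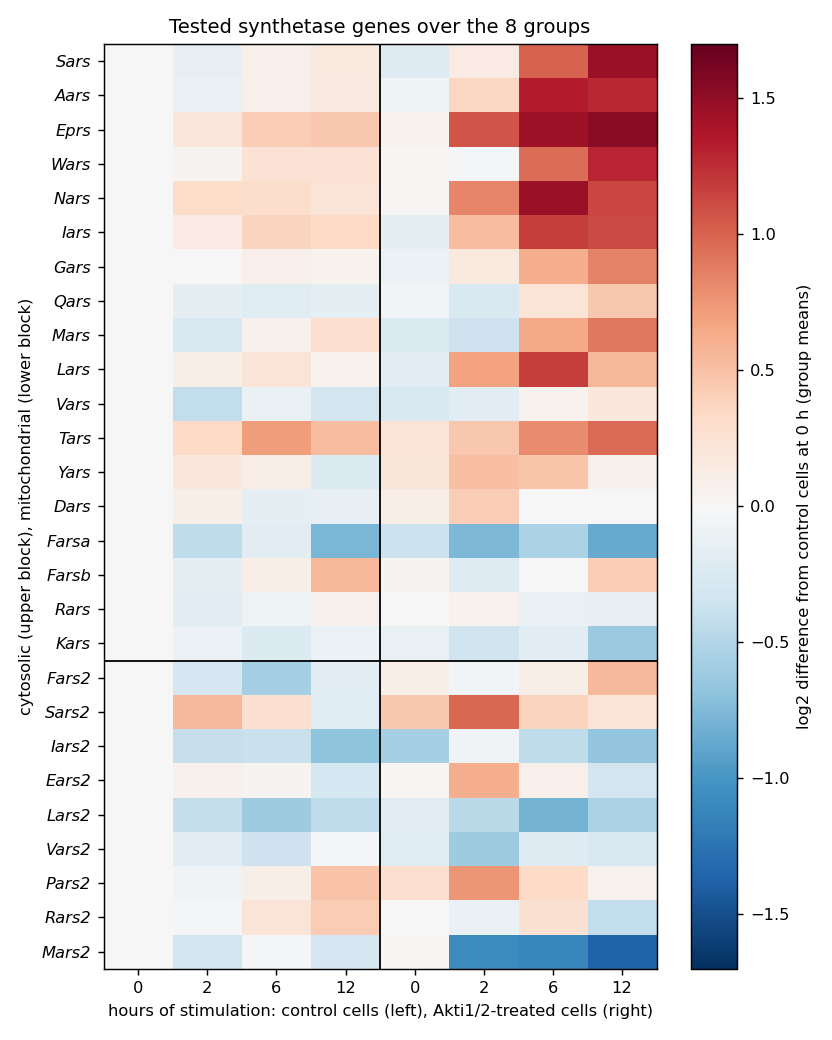
Log2 difference of each group mean from control cells at 0 h (colour; red higher, blue lower) for the 27 tested synthetase genes (rows: 18 cytosolic above the line, 9 mitochondrial below, each block ordered by the 12 h difference between treated and control cells) over the 8 groups (columns, hours of stimulation). Most of the upper block is red in the treated columns at 6 and 12 h, with Eprs, Nars, Lars and Iars also red at 2 h and Tars red in control cells at 6 h, and the darkest blue is Mars2 in treated cells from 2 h on.

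Set directly against control cells at the same time, most of the cytosolic genes were higher in treated cells at 6 and 12 h, and few of the mitochondrial ones. At 2 h, 6 cytosolic genes were higher (Eprs, Lars, Nars, Aars, Iars and Dars) and none lower, against 13.6% of all tested genes called higher and 14.9% called lower, and of the mitochondrial genes Pars2 and Ears2 were higher and Mars2 and Vars2 lower. At 6 h, 10 of 18 cytosolic genes were higher and none lower, where 18.8% of tested genes were called higher and 18.7% lower. At 12 h, 11 were higher and Kars was lower, where 24.2% and 24.8% were. The mitochondrial calls were 1 higher (Fars2) and 1 lower (Mars2) at 6 h, and 1 higher (Fars2) and 2 lower (Mars2 and Rars2) at 12 h.

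The median difference over the 18 cytosolic genes was 0.24 at 2 h, 0.49 at 6 h and 0.56 at 12 h, and over the 9 mitochondrial genes it was 0.25, 0.05 and -0.11. With Yars left out, whose groups were at background, and Sars2 at its bound, the 12 h medians were 0.61 and -0.11. Every called gene had the same sign on both chips at each of the 3 times. Each chip holds 1 of the 2 arrays behind each group mean, so this is not separate evidence for the calls. Both treated arrays were above both control arrays at 12 h in 14 of 18 cytosolic genes (77.8%), in 2 of 9 mitochondrial genes (22.2%) and in 36.9% of all tested genes. The 14 include Yars, which was at background in both groups at 12 h. The 2 include Sars2, which was at background in control cells at 12 h. Both treated arrays were below both control arrays in 3 cytosolic (16.7%) and 4 mitochondrial genes (44.4%) at 12 h, beside 38.7% of all. At 6 h the shares above were 61.1%, 22.2% and 31.7%, and at 2 h they were 55.6% in both compartments and 31.1% over all genes. The 2 h calls were the least secure: the count of called synthetases, 10, was 3 without replicate 1 of treated cells at 2 h and 5 without replicate 2 of control cells at 2 h. Only Lars and Mars2 kept their 2 h call whichever array was left out and under each of the other alternatives. At 12 h, 12 of the 15 calls did so, and at 6 h 8 of 12.

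The 6 cytosolic genes with the largest range over the group means all belonged to those higher in treated cells. That range includes differences between treated and control cells, so the choice favours genes that differ. Values below are normalized log2 intensities, replicate 1 before replicate 2, with differences and their standard errors on the same scale.

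Sars, the serine enzyme (chr3:108424864-108445259), read 8.40 and 8.52 in control cells at 0 h, 8.26 and 8.39 at 2 h, 8.40 and 8.69 at 6 h, then 8.59 and 8.66 at 12 h. With Akti1/2 it read 8.29 and 8.18, 8.70 and 8.51, 9.68 and 9.24, and 10.09 and 9.76. The treated arrays were below the controls at 0 h, just above them at 2 h and far above every control array from 6 h. The difference was 0.91 at 6 h and 1.30 at 12 h (SE 0.163, limma adjusted p = 0.000947 and 4.08e-05), the latter a 2.46-fold level and the largest of any synthetase at 12 h.

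Aars, the alanine enzyme (chr8:111027778-111055569), was the brightest of the 6. Control cells held 11.07 and 11.14 at 0 h, 11.07 and 10.91 at 2 h, 11.13 and 11.27 at 6 h, then 11.33 and 11.18 at 12 h, and treated cells 11.04 and 11.02, 11.53 and 11.38, 12.58 and 12.29, and 12.32 and 12.44. Its level stayed near 11 in every control array, and each stimulated treated array was above all 8 of them. The difference was 0.47, 1.24 and 1.13 at 2, 6 and 12 h (SE 0.124, limma adjusted p = 0.0157, 1.49e-05 and 1.39e-05), 2.37-fold at 6 h.

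Eprs, a single polypeptide that charges both glutamate and proline tRNAs (chr1:185361417-185428360), measured 8.00 and 8.21 in control cells at 0 h, 8.37 and 8.21 at 2 h, 8.68 and 8.37 at 6 h, then 8.53 and 8.59 at 12 h. The treated values were 8.01 and 8.32, 8.94 and 9.42, 9.28 and 9.80, and 9.73 and 9.55. The replicates of Eprs lay farther apart than those of the other 5 genes at 2 and 6 h in treated cells, but the stimulated treated arrays did not overlap with any control array. Its difference was 0.88 at 2 h, 1.02 at 6 h and 1.08 at 12 h (SE 0.201, limma adjusted p = 0.00717, 0.00187 and 0.000738). The 2 h call was lost without replicate 2 of treated cells at 2 h (limma adjusted p = 0.0738).

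Nars, the asparagine enzyme, gave 8.45 and 8.34 in control cells at 0 h, then 8.72 and 8.70, 8.68 and 8.72, and 8.72 and 8.50 at 2, 6 and 12 h. Treated cells gave 8.48 and 8.34 at 0 h, then 9.29 and 9.18, 9.71 and 10.03, and 9.48 and 9.59. The peak was thus at 6 h in treated cells, with a difference of 1.17 there, 0.52 at 2 h and 0.92 at 12 h (SE 0.126, limma adjusted p = 2.73e-05, 0.00989 and 7.59e-05).

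Lars, the leucine enzyme, followed a like course. Its control values were 8.65 and 8.48 at 0 h, 8.75 and 8.57 at 2 h, 8.78 and 8.78 at 6 h, then 8.72 and 8.54 at 12 h, and its treated values 8.40 and 8.35, 9.18 and 9.31, 9.80 and 9.69, and 9.16 and 9.11. Both treated arrays at 12 h were below both at 6 h, which was not so for Sars. The difference was 0.58 at 2 h, 0.96 at 6 h and 0.50 at 12 h (SE 0.112, limma adjusted p = 0.00275, 4.49e-05 and 0.00259).

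Iars, the isoleucine enzyme (chr13:49682130-49734267), was the only one of the 6 called in control cells, where Eprs gave 0.42 and 0.45 at 6 and 12 h without passing the test. Iars went from 8.59 and 8.60 at 0 h to 8.76 and 8.71 at 2 h, 9.01 and 8.94 at 6 h, then 8.99 and 8.88 at 12 h. With Akti1/2 it went from 8.48 and 8.39 at 0 h to 9.17 and 9.06, 9.73 and 9.81, and 9.79 and 9.64. The controls at 6 h came close to the treated arrays at 2 h without reaching them. The difference was 0.38, 0.79 and 0.78 at 2, 6 and 12 h (SE 0.101, limma adjusted p = 0.0151, 9.05e-05 and 5.07e-05).

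**Figure D2:**
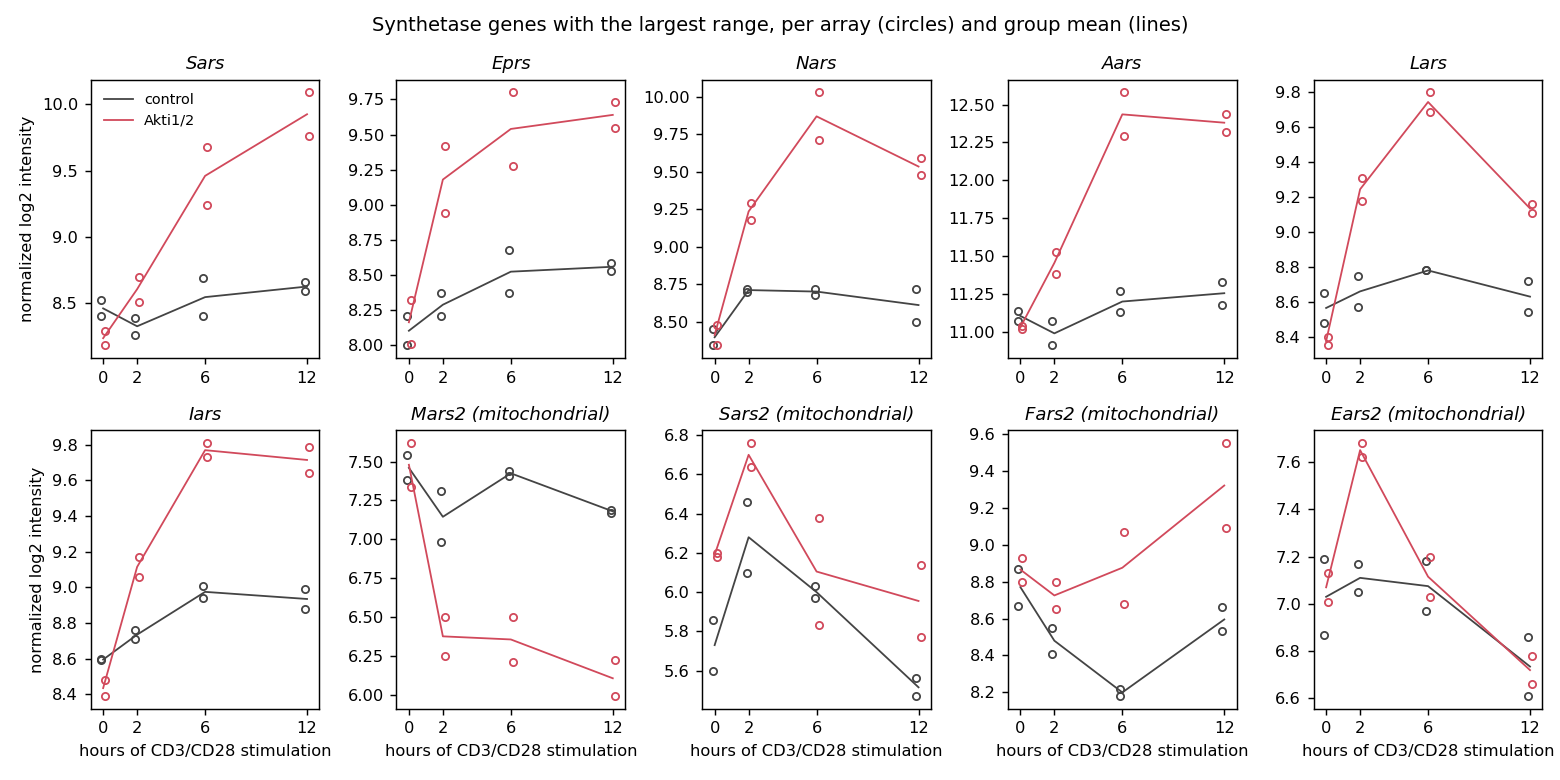
Normalized log2 intensity (vertical axis, its own scale in each panel) against hours of stimulation for the 6 cytosolic and 4 mitochondrial synthetase genes with the largest range of group means; circles are single arrays, lines join the means of 2 arrays, control in grey and Akti1/2 in red. In the cytosolic panels the treated line leaves the control line upward, to 10.09 and 9.76 for Sars at 12 h, while Mars2 leaves it downward, to 5.99 and 6.22.

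Other cytosolic genes were called at 1 or 2 of the 3 times. Wars (tryptophan) did not pass the test at 2 h (-0.08) and was higher by 0.70 at 6 h and 1.04 at 12 h, a 2.06-fold level (limma adjusted p = 3.6e-05). Gars (glycine) was higher by 0.54 and 0.78 at 6 and 12 h, Qars (glutamine) by 0.44 and 0.61, and Mars (methionine) by 0.57 and 0.61. Of these, the 6 h call of Mars was lost in 11 of the 16 fits that left out 1 array (highest limma adjusted p = 0.351, without replicate 1 of treated cells at 6 h), and its 12 h call went to 0.184 without replicate 2 of control cells at 12 h. The 6 h call of Qars went to 0.178 without replicate 1 of control cells at 6 h. The 6 h call of Gars was kept in all 16 fits that left out 1 array, and under 7 of 8 other alternatives (highest limma adjusted p = 0.0646). Vars was called at 12 h only, higher by 0.49, a call not kept in every one of those 16 fits. Dars (aspartate) was called at 2 h only, higher by 0.31, a call kept in 4 of those 16 fits. Kars (lysine) was lower by 0.54 at 12 h (limma adjusted p = 0.00486), and this was lost without replicate 1 of control cells at 12 h (0.0564).

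Tars differed between treated and control cells by 0.11, 0.09 and 0.43 at 2, 6 and 12 h, none called (limma adjusted p = 0.0516 at 12 h). Its level rose after stimulation with and without the inhibitor, by 0.57 and 0.72 at 6 h. Farsa and Farsb were not called against control cells at any time.

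The genes with the smallest range were Rars, Dars and Vars. Rars, the arginine enzyme (chr11:35808381-35834528), read 10.99 and 10.96, 10.81 and 10.78, 10.93 and 10.85, and 11.01 and 11.08 in control cells at 0, 2, 6 and 12 h, and 10.93 and 11.02, 11.04 and 11.04, 10.89 and 10.82, and 10.77 and 10.90 with Akti1/2. No comparison called it, and its group means spanned 0.25 on the log2 scale. Dars read 10.10 and 10.07, 10.21 and 10.17, 9.87 and 9.97, and 9.89 and 10.01 in control cells, and 10.15 and 10.25, 10.52 and 10.49, 9.99 and 10.17, and 10.14 and 10.02 in treated cells. Vars fell from 10.51 and 10.42 at 0 h to 10.11 and 9.99 at 2 h in control cells, with 10.25 and 10.44 at 6 h and 10.27 and 10.04 at 12 h. Treated cells held Vars at 10.14 and 10.27, 10.31 and 10.25, 10.62 and 10.43, and 10.70 and 10.59, so that the groups overlapped at 6 h and were apart at 12 h.

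Among the mitochondrial genes the largest difference ran the other way. Mars2, the mitochondrial methionine enzyme (chr1:55237177-55240058), read 7.54 and 7.38, 7.31 and 6.98, 7.41 and 7.44, and 7.19 and 7.17 in control cells at 0, 2, 6 and 12 h. In treated cells it went from 7.34 and 7.62 to 6.25 and 6.50, 6.50 and 6.21, and 5.99 and 6.22. All 6 stimulated treated arrays were below every other array. The difference was -0.77, -1.07 and -1.08 at 2, 6 and 12 h (SE 0.155, limma adjusted p = 0.00371, 0.000207 and 0.000111), that is 0.473 of the control level at 12 h.

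Fars2, the mitochondrial phenylalanine enzyme, went down in control cells, from 8.87 and 8.67 at 0 h to 8.55 and 8.41 at 2 h and 8.22 and 8.18 at 6 h, with 8.53 and 8.66 at 12 h. Treated cells gave 8.93 and 8.80, 8.65 and 8.80, 8.68 and 9.07, and 9.55 and 9.09. The treated arrays were above the controls at 6 and 12 h, by 0.67 and 0.72 (SE 0.164, limma adjusted p = 0.00637 and 0.00292), and the 6 h call was lost without replicate 2 of treated cells at 6 h (0.063).

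Ears2, the mitochondrial glutamate enzyme, was called at 2 h and not at the other times. It read 7.17 and 7.05 in control cells and 7.68 and 7.62 in treated cells at 2 h, against 7.19 and 6.87 and 7.01 and 7.13 at 0 h, 7.18 and 6.97 and 7.20 and 7.03 at 6 h, and 6.61 and 6.86 and 6.78 and 6.66 at 12 h. The groups overlapped at the other 3 times, and the 2 h difference of 0.54 (limma adjusted p = 0.013) went to 0.0767 without replicate 2 of control cells at 2 h. Sars2, the mitochondrial serine enzyme, was dim, with 5.60 and 5.86, 6.10 and 6.46, 6.03 and 5.97, and 5.56 and 5.47 in control cells and 6.20 and 6.18, 6.76 and 6.64, 6.38 and 5.83, and 6.14 and 5.77 in treated cells. It was not well above background in control cells at 12 h, so its level there is a bound, and the treated level was at least 1.18 times it, a difference that was not called (limma adjusted p = 0.0699).

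Rars2, the mitochondrial arginine enzyme, rose to 8.17 and 8.09 in control cells at 12 h and was 7.28 and 7.27 in treated cells, a difference of -0.85 (limma adjusted p = 5.9e-05). Pars2 (proline), above background on 1 of the 2 control arrays at 2 h, was higher by 0.82 and Vars2 (valine) lower by 0.42 at 2 h only, and each call was lost when 1 array was left out (highest limma adjusted p 0.0572 and 0.0921). Iars2 and Lars2 were not called against control cells at any time.

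For 6 amino acids both genes of a pair named alike were tested. At 12 h the cytosolic gene minus the mitochondrial one, each as treated minus control, was 1.69 for methionine (Mars 0.61, Mars2 -1.08), 0.77 for isoleucine, 0.73 for valine, 0.64 for arginine and 0.61 for leucine. These 5 were above 0 at 12 h. At 6 h arginine was at -0.09 and valine at 0.05, with 0.85, 1.16 and 1.64 for isoleucine, leucine and methionine, and at 2 h isoleucine was at 0.05 and the other 4 between 0.33 and 0.68. For serine no 12 h value is given, since Sars2 was not well above background in control cells at 12 h. At 2 h Sars2 gained more, with group means of 6.28 in control and 6.70 in treated cells, beside 8.32 and 8.61 for Sars. At 6 h Sars gained more, with 8.55 and 9.46 beside 6.00 and 6.10 for Sars2. Phenylalanine went the other way at 12 h, since Farsa and Farsb gave -0.08 and -0.15 where Fars2 gave 0.72. Eprs, at 1.08, compared with -0.01 for Ears2 and -0.42 for Pars2. These pair differences were not tested.

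Whether the change from 0 h differed with the inhibitor was tested directly by the interaction. It called 2 cytosolic genes at 2 h (Lars and Iars), where 4.25% of all tested genes were called higher and 4.16% lower, with Iars2 higher and Mars2 lower among the mitochondrial genes. It called 8 cytosolic genes at 6 h (Aars, Lars, Nars, Sars, Eprs, Iars, Wars and Gars), all toward a larger rise with Akti1/2, where 10.3% of tested genes were called higher and 9.24% lower. It called 11 at 12 h, adding Mars, Qars and Vars, again all in that direction, where 16.3% of tested genes were called higher and 16.2% lower. Mars2 was called in the opposite direction at each time and Rars2 at 12 h. None of the 4 calls at 2 h held in every fit that left out 1 array, while 6 of 9 did at 6 h and 10 of 13 at 12 h. At 6 h those of Eprs, Gars and Wars did not. The interaction shares its 0 h arrays between times, and with the other comparisons given above. It also cannot separate stimulation from the longer time in the inhibitor.

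**Figure D3:**
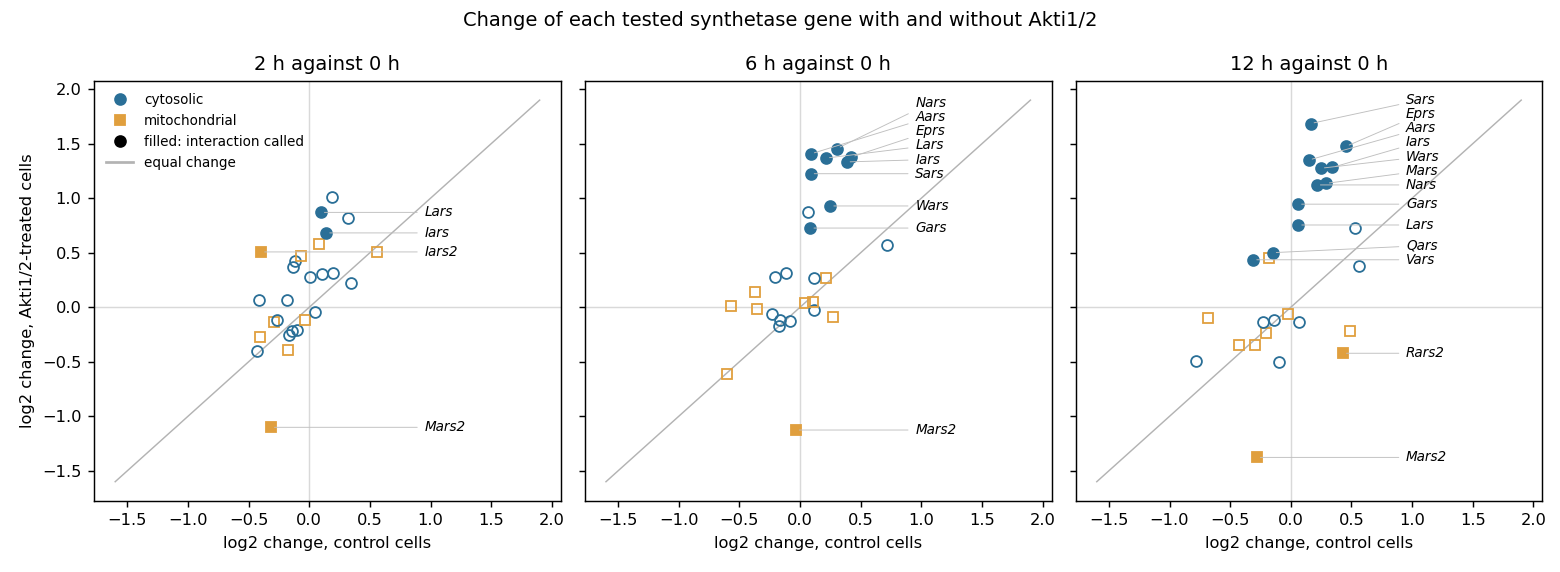
Log2 change from 0 h in Akti1/2-treated cells (vertical axis) against the change in control cells (horizontal axis) for each of the 27 tested synthetase genes at 2, 6 and 12 h; circles are cytosolic, squares mitochondrial, filled where the interaction was called, and the line marks equal change. At 12 h, 11 filled circles lie above the line and the filled squares of Mars2 and Rars2 below it.

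The cytosolic genes were then split by whether they are commonly listed as targets of ATF4, a grouping taken from general knowledge and made with earlier results of these arrays known, so that it is not independent of them. Of the 12 listed genes (Aars, Cars, Eprs, Gars, Iars, Lars, Mars, Nars, Sars, Tars, Wars and Yars), 11 were tested, and treated cells were higher than controls in 5 at 2 h, 9 at 6 h and 9 at 12 h, with none lower, where 13.6%, 18.8% and 24.2% of all tested genes were called higher. Of the 7 others (Dars, Farsa, Farsb, Hars, Kars, Qars and Rars), 6 were tested, with 1 higher at each time (Dars at 2 h, Qars at 6 and 12 h) and Kars lower at 12 h, which is near the share over all tested genes. Vars was on neither list, and its differences were 0.23, 0.18 and 0.49, called at 12 h, so that with it 2 of 7 were higher then. The median differences were 0.32, 0.79 and 0.78 for the listed genes and -0.08, -0.00 and -0.11 for the others without Vars, beside -0.01, -0.01 and -0.02 over all tested genes. The listed medians, also those array by array below, include Yars, which was at background on every control array. At 2 h the median of 0.32 is the value of Yars itself, so it is not a measured difference. Listed genes that were not called at 6 and 12 h were Tars and Yars.

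Array by array, the median of the listed genes, as the difference from control cells at 0 h, was 1.14 and 1.02 in treated cells at 6 h and 1.08 and 1.05 at 12 h. In the stimulated control arrays it ran from 0.10 to 0.33. The 6 others, without Vars, had medians between -0.27 and 0.04 on every array, and the mitochondrial genes between -0.36 and 0.09. The cytosolic minus the mitochondrial median was 1.05 and 1.04 in treated cells at 12 h, against 0.38 and 0.25 in control cells, and 0.85 and 0.41 at 6 h, against 0.07 and 0.23. The 2 treated arrays at 6 h differed most between replicates.

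**Figure D4:**
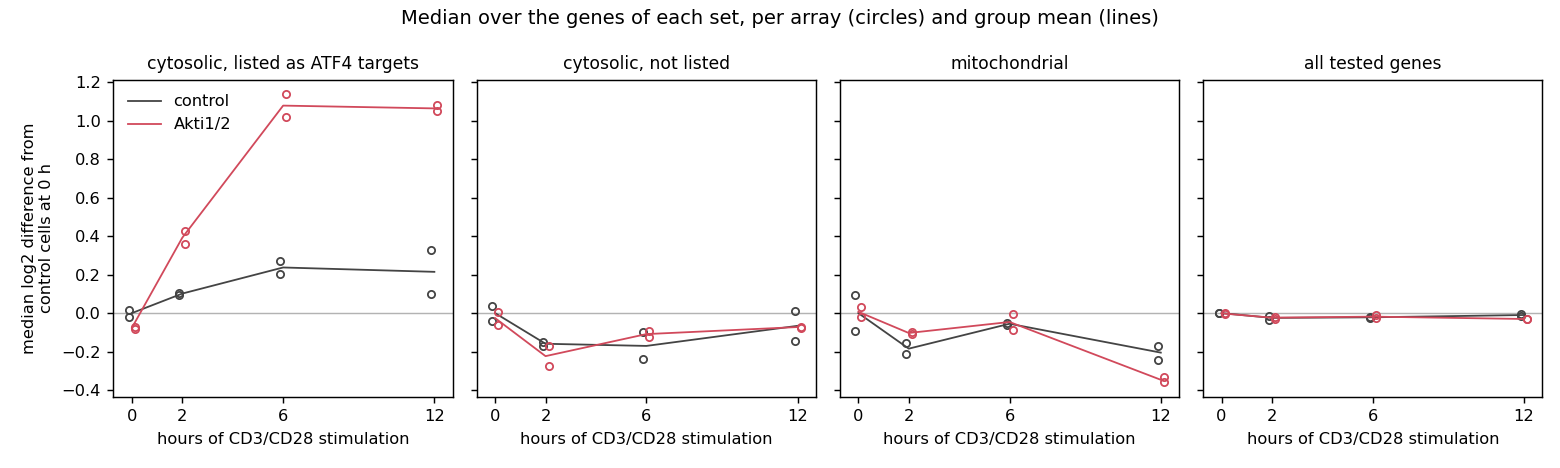
Median log2 difference from control cells at 0 h (vertical axis) over the cytosolic genes listed as ATF4 targets, 6 other cytosolic genes (without Vars), the mitochondrial genes and all tested genes, against hours of stimulation; circles are single arrays, lines join the means of 2 arrays, control in grey and Akti1/2 in red. The treated line of the listed cytosolic genes reaches about the 1.14 and 1.02 of its 2 arrays at 6 h, and the arrays of the 6 other cytosolic genes and the mitochondrial genes lie between -0.36 and 0.09.

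The cytosolic genes were also split by membership of the multi-synthetase complex. Of its 8 enzymes (Eprs, Iars, Lars, Mars, Qars, Rars, Kars and Dars), 5 were higher in treated cells at 6 h, and 5 higher and 1 lower at 12 h, with medians of 0.50 and 0.56. Of the other 10 cytosolic genes tested, 5 and 6 were higher, with medians of 0.45 and 0.64, where 18.8% and 24.2% of all tested genes were called higher. By structural class, leaving out Eprs, which joins an enzyme of each class, the class I enzymes had 5 of 8 higher at 6 h and 6 at 12 h (medians 0.50 and 0.56), and the class II enzymes 4 of 9 at both times and 1 lower at 12 h (medians 0.16 and 0.43). Differences between these groups were not tested.

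The 3 scaffold genes of the complex moved in both directions. Scye1, which encodes the scaffold AIMP1, read 10.93 and 10.97 in control and 11.78 and 11.73 in treated cells at 12 h, a difference of 0.81 (limma adjusted p = 0.000149). Jtv1, which encodes AIMP2, read 10.00 and 9.85 against 9.58 and 9.54, a difference of -0.37 (limma adjusted p = 0.00953), and at 6 h 9.85 and 10.00 against 9.33 and 9.27 (-0.62). Eef1e1, the third scaffold, read 11.16 and 11.44 against 10.03 and 10.17 at 12 h, a difference of -1.20 (limma adjusted p = 7.86e-06), and at 6 h it was lower by 0.77. For each of the 3 the treated and control arrays did not overlap at 6 and 12 h. Over all tested genes both treated arrays were above both control arrays, as for Scye1, in 31.7% at 6 h and 36.9% at 12 h, and below both in 33.0% and 38.7%. Eef1e1 and Jtv1 rose in control cells, by 0.70 and 0.45 at 12 h, whereas Scye1 did not pass the test there (0.02). The 12 h call of Jtv1 was lost without replicate 1 of control cells at 12 h (0.0897).

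The list of tRNA charging partners holds these 3 scaffolds and other genes that modify, edit or release tRNAs or resemble synthetases, Tarsl2 and Aarsd1 among them. Of the 15 on the arrays, 13 were tested, and treated cells were lower in 3 at 2 h, 6 at 6 h and 8 at 12 h, and higher in 1, 1 and 2. Over all tested genes 14.9%, 18.7% and 24.8% were called lower and 13.6%, 18.8% and 24.2% higher, so that 3 of 13 at 2 h is near the share of all genes. The median difference was -0.04, -0.24 and -0.53. Yrdc, which acts in the threonylcarbamoyl modification of tRNAs, was lower by 1.26 at 6 h and 1.32 at 12 h (limma adjusted p = 3.93e-05 at 12 h). Mtfmt, which formylates the methionyl-tRNA that Mars2 charges, was lower by 0.96 and 0.91 (limma adjusted p = 0.0017 and 0.00157). The peptidyl-tRNA hydrolase gene Ptrh2 was lower by 0.53 at 12 h, and the call was lost without replicate 2 of control cells at 12 h (limma adjusted p = 0.112).

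The other genes of the ATF4 pathway were higher as well. Of 30 on the arrays, 21 were tested, and treated cells were higher in 18 at 2 h, 19 at 6 h and 20 at 12 h, with 1 lower (Slc1a5) at 12 h, where 13.6%, 18.8% and 24.2% of all tested genes were called higher and 24.8% lower at 12 h. These counts include Atf3, which was above background on 7 arrays and brightest on the stimulated treated ones. It passed the filter mainly through the groups where it was higher, so its calls are not independent of the filter. The median difference was 1.27, 1.27 and 1.80, or 1.08, 1.20 and 1.43 with genes at background in 1 group set to their bound. Trib3, a pseudokinase that restrains ATF4, was higher by 4.32 on the log2 scale at 12 h, Ddit3 (the transcription factor CHOP) by 3.65 and Chac1, which breaks down glutathione, by 3.35 (limma adjusted p = 4.9e-10, 3.55e-10 and 7e-08). Ddit3 and Chac1 were also higher at 0 h, by 1.07 and 1.45. The 0 h call of Chac1 was lost without replicate 2 of treated cells at 0 h (0.0994), and that of Ddit3 in the fit of only the groups compared (0.113). The amino acid transporter Slc1a4 was at background in control cells at 2 h and at least 4.63-fold higher with Akti1/2. Nupr1 was 5.03-fold and Cebpb 5.10-fold higher at 12 h, Stc2 was 2.38-fold higher, and Atf3, at background in control cells at 12 h, was at least 2.21-fold higher.

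Atf4 itself and Asns, an ATF4 target that makes asparagine, are given because of the name of the list, and were added after their values were seen. Atf4 mRNA read 10.98 and 10.82 in control and 12.30 and 12.36 in treated cells at 12 h, a difference of 1.43 (limma adjusted p = 1.47e-06). Asns read 10.86 and 10.79 against 12.11 and 12.25, a difference of 1.36 (limma adjusted p = 8.53e-07). TTGCATCA was in 7 of 36 promoter windows of the pathway genes (19.4%), those of Atf3, Chac1, Herpud1, Nupr1, Slc1a4, Slc7a11 and Vldlr, of which Slc7a11 and Vldlr were at background on every array and not tested. Beside those of the synthetases above, 3 of them are shown as examples of genes that rose with Akti1/2, as Atf3 and Herpud1 also did.
Chac1: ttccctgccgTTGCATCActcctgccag
Nupr1: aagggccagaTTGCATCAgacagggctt
Slc1a4: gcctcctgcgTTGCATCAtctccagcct
They lie at chr2:119351039-119351066 on the plus strand, chr7:126625563-126625590 on the minus strand and chr11:20332700-20332727 on the minus strand.

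**Figure D5:**
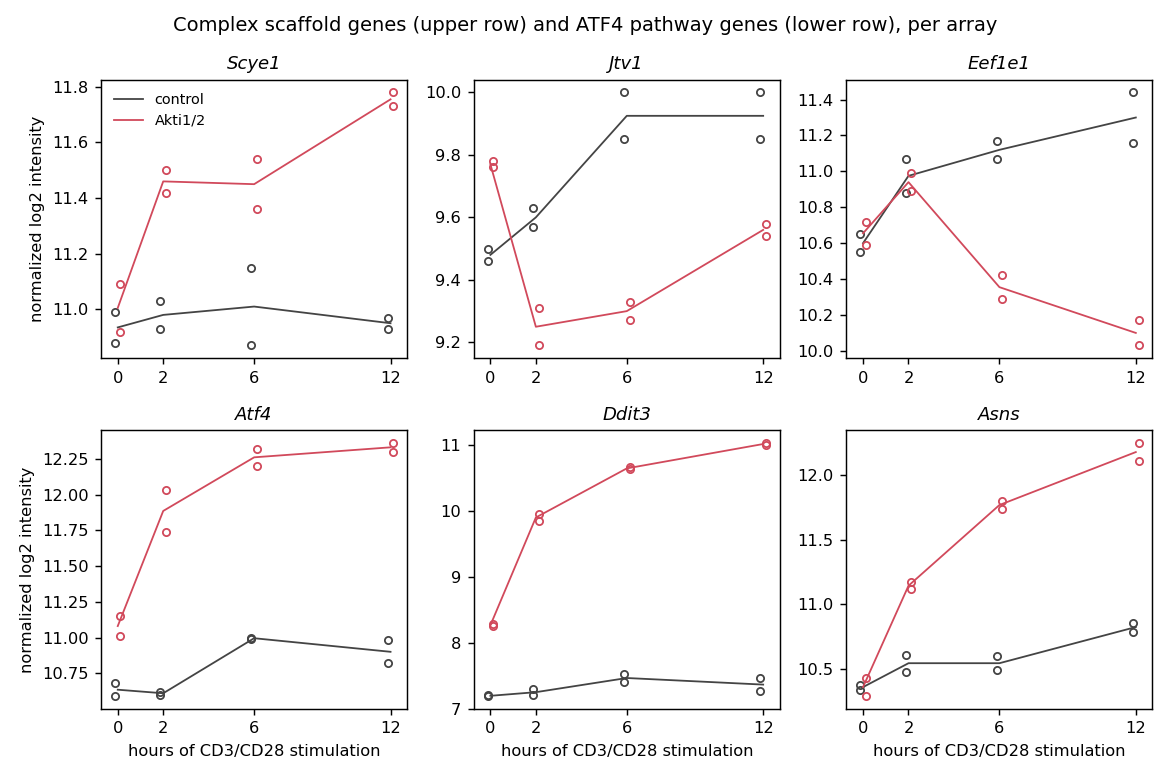
Normalized log2 intensity (vertical axis, its own scale in each panel) against hours of stimulation for the 3 complex scaffold genes (upper row) and Atf4, Ddit3 and Asns (lower row); circles are single arrays, lines join the means of 2 arrays, control in grey and Akti1/2 in red. Scye1 lies above control with Akti1/2, Jtv1 and Eef1e1 below it at 6 and 12 h, and the treated Atf4, Ddit3 and Asns arrays lie over control at 2, 6 and 12 h.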

How the data were processed

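The authors deposited linear probe intensities, 1 value per gene and array, exported with the GenomeStudio gene expression module (GSGX) 1.5.4 without normalization or background subtraction; where on each transcript the probes lie was not used. From these intensities, neqc of limma 3.58.1 (R 4.3.3) corrected the background against 798 negative controls, quantile normalized the arrays and took log2 after an offset of 16. Genes above background (detection p below 0.01, the share of negative controls as bright) on at least 2 of 16 arrays were tested, 7395 of 18138. One limma model over the 8 groups (8 residual and 4.26 prior degrees of freedom, Benjamini-Hochberg, adjusted p below 0.05) gave all contrasts. For genes at background in 1 group, "at least N-fold" compares the brighter group's mean with, per array, the higher of the dimmest detected gene and the gene itself.

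Array means ran from 393.8 to 544.0 and medians from 119.4 to 148.6, with 6288 to 6907 genes above background; with arrays, their number limits the precision. Correlations between replicates were 0.986 to 0.994. A second table of control probes was not used. The code was tested on simulated data. Per-array values are given for the 6 cytosolic and 4 mitochondrial genes of largest range of group means and the 3 of smallest, and list genes are named if called against control cells at 2 or more times, at most 8 a list; a few items that these rules name are not reported here. Members, lists and motifs were chosen with earlier results of these data known. The alternatives tried were quantile normalization with no background step, mean scaling, an offset of 50, no filter, genes on all arrays, replicate or chip as a block, fits of the groups compared, each array left out, and each chip alone.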

Additional observations from a re-analysis of the deposited data

Results flagged for a closer look

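The change from 0 h differed between treated and control cells by the interaction test of limma in 8 of the 13 synthetase genes described array by array. Of these 13, 6 cytosolic and 4 mitochondrial genes were picked for the largest range of group means, so this count favours genes that changed. Over all 27 tested synthetases it called 4, 9 and 13 at 2, 6 and 12 h. Of all tested genes, 4.25%, 10.3% and 16.3% were called higher and 4.16%, 9.24% and 16.2% lower. Values are the change with Akti1/2 minus the change without, on the log2 scale. Sars gave 1.14 at 6 h and 1.52 at 12 h (limma adjusted p = 0.00496 and 0.000411). For Eprs they were 0.95 and 1.02 (limma adjusted p = 0.0341 and 0.0154), lost at both times without replicate 1 of treated cells at 0 h (0.117 and 0.0646). Nars gave 1.15 and 0.91 (limma adjusted p = 0.00108 and 0.00221), and Aars 1.32 and 1.20 (limma adjusted p = 0.00048 and 0.000321). Lars was called at 2, 6 and 12 h, with 0.77, 1.15 and 0.69 (limma adjusted p = 0.0138, 0.000561 and 0.00551), and Iars likewise, with 0.54, 0.95 and 0.94 (limma adjusted p = 0.0371, 0.000952 and 0.000418). Vars was called at 12 h, with 0.75 (limma adjusted p = 0.00561).

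Mars2 went the opposite way, with -0.78 at 2 h, -1.09 at 6 h and -1.10 at 12 h (limma adjusted p = 0.0463, 0.00469 and 0.00248). The 2 h calls of Lars, Iars and Mars2 held in 12, 6 and 3 of the 16 fits that left out 1 array.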

How the results depend on the processing

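With the cytosolic minus the mitochondrial median as the measure, the values as reported were 0.13, 0.12 and 0.32 in control cells (2, 6 and 12 h against 0 h), 0.36, 0.64 and 0.97 in treated cells, -0.07, -0.01, 0.44 and 0.66 for treated against control cells (0, 2, 6 and 12 h) and 0.10, 0.56 and 0.75 for the interaction. Quantile normalization without background correction gave 0.18, 0.42 and 0.62 in treated cells, 0.49 at 12 h against control cells and 0.61 for the 12 h interaction. Scaling to the same mean gave 0.28 at 6 h against control cells and 0.30 for the 6 h interaction, where it also moved the median of all tested genes to 0.12. An offset of 50 gave 0.80 in treated cells at 12 h. Without a filter on dim genes, the values were 0.10 in control cells at 12 h, 0.77 in treated cells at 12 h and 0.22 at 2 h against control cells, and with genes detected on all 16 arrays only, 0.44 in control cells at 6 h and 0.29 at 2 h against control cells. On chip 1 alone the difference from control cells was 0.059 at 0 h and 0.93 at 12 h. On chip 2 alone it was 0.29 at 6 h and 0.44 at 12 h, with 0.27 in control cells and 0.16 in treated cells at 2 h, and 0.35, 0.36 and 0.59 for the interaction. Leaving out 1 array gave 0.11 to 0.19, 0.021 to 0.23 and 0.25 to 0.38 in control cells at 2, 6 and 12 h, the lowest at 6 h being that without replicate 1 of control cells at 0 h, and -0.10 to 0.051 at 2 h, 0.27 to 0.50 at 6 h and 0.58 to 0.90 at 12 h against control cells, and 0.077 to 0.24, 0.38 to 0.63 and 0.56 to 0.91 for the interaction at 2, 6 and 12 h. Against control cells the value at 6 and 12 h was above 0 in each of these settings. A group left with 1 array was assumed to vary like the others. A block or a fit of only the groups compared leaves these medians as they are, and counts have no test within a chip.

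Of the counts of called synthetases, the 1 of control cells at 2 h became 2 with mean scaling and 0 without the filter, with the replicate block, with the chip block and in the fit of only the groups compared. Over the arrays left out it was 0 to 3, against 0 to 6 for the 5 at 6 h, 2 to 8 for the 7 at 12 h (4 with mean scaling) and 6 to 12 for the 11 of treated cells at 2 h. The 10 called against control cells at 2 h were 5 in the fit of only the groups compared and 3 to 11 over the arrays left out. The 4 interaction calls at 2 h were 2 with mean scaling and in the fit of only the groups compared, and 0 to 5 over the arrays left out. Replicates with the same number also shared a chip, except in control cells at 12 h, where the numbers lay on the opposite chips. Their residuals did not deviate together throughout (correlations -0.296 to 0.264 over 28 pairs of groups, 7 of them over 0.1), and the replicate block moved no other count by over 1.5 times. Over the genes named, 13781 values kept their side of the threshold or, within a chip, moved by less than the replicate spread. Another 468 moved by more within a chip, 424 lost a call and 108 gained one. No value with a call reversed, while the direction of values without a call was not compared. The causes of these shifts were not tested.

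Genes at background (7 of 34 on all or all but 1 array) cannot be compared at this signal, and changes of dim genes such as Sars2, Pars2 and Yars are bounds or close to them.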

Other observations

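A pair of genes with synthetase-like symbols did not meet the symbol rule and were counted with the tRNA charging partners. Tarsl2, which resembles Tars, was lower in treated cells at 12 h, where it was at background, so that control cells were at least 1.12-fold higher (limma adjusted p = 0.0245). Aarsd1, which resembles the editing part of Aars, was lower by 0.73 on the log2 scale at 12 h.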
